A study of Mus musculus with 7 samples.

Results

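Interferon-stimulated genes are the genes that cells switch on when interferon reaches them, and the members described here are those outside the class I histocompatibility pathway. The members were chosen as the rows of the deposited table whose symbol is on a list of 59 such genes, and 48 of them are among the 12756 genes of the table. The remaining 11 (Tgtp1, Tgtp2, Dhx58, Oas1a, Oasl1, Mx1, Mx2, Xaf1, Ifi203, Ifi204 and Lgals3bp) were not analysed here. The study asked which ribosome-bound transcripts of adult retinas differ when the Notch ligand Dll4 is blocked by an antibody. Ribosome-bound RNA was measured in 4 anti-Dll4 libraries and 3 control IgG libraries. All 7 came from retinas of adult C57BL/6 mice of the genotype Cdh5-CreERT2 Rpl22 tm1.1Psam, in which a Cre driven by the endothelial Cdh5 promoter attaches an HA epitope to Rpl22, a protein of the ribosome. An antibody to this epitope then draws down endothelial ribosomes with their bound RNA. The control mice carried the same alleles and received control IgG. The sources used here give no dose, no duration and no number of animals per library, and RNA from before the pull-down was not used here. Nothing in the labels ties a library to its own animal, so p-values reflect how these libraries vary, and some of that variation may be technical.

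Type I interferons bind the receptor Ifnar1/Ifnar2, whose kinases Jak1 and Tyk2 act on transcription factors in the cytoplasm. Stat2 and Irf9 are parts of the complex ISGF3, which binds a DNA element called ISRE in the promoters of many interferon-stimulated genes. Interferon gamma acts on another element, GAS, and through Irf1. Endothelial cells carry both receptors and, like most cells, keep a low basal level of these transcripts, and leukocytes and microglia express many of them as well.

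The libraries held 1356192 to 1771086 reads over the listed genes. Library numbers follow the column names of the table. For control IgG 1 that number occurs in no control title, and it was used as a control library without a number of its own. The pull-down held RNA of endothelial and of other cells. The 22 endothelial markers, all of them listed, made up 0.800% ± 0.126 of all CPM (reads scaled to a fixed total over the listed genes of a library) in anti-Dll4 libraries and 0.388% ± 0.102 in control IgG libraries (SD, n = 4 and 3), and 17 rod photoreceptor markers made up 1.82% ± 0.436 in anti-Dll4 and 2.85% ± 0.0561 in control IgG libraries. In such bulk RNA, fewer cells of a type and less RNA per cell cannot be told apart. In an exact permutation test over the 35 splits of 7 libraries, both differences had p = 0.0571, the smallest two-sided p this test can give. The 4 astrocyte markers also separated the groups, at 122 ± 74.0 CPM in anti-Dll4 and 283 ± 23.2 CPM in control IgG libraries (exact p = 0.0571). The 10 Müller glia markers overlapped in sum (exact p = 0.286), although Vim, which endothelial cells express too, averaged 416 CPM in anti-Dll4 and 83.8 CPM in control IgG libraries (limma adjusted p = 0.0656). The part of these cells in the levels of the members was not tested here.

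Most interferon-stimulated genes had higher values in the anti-Dll4 libraries than in the control IgG libraries, and none passed the test over all genes. Changes are differences of mean log2(CPM + 1), anti-Dll4 minus control IgG, tested with limma over the 10899 genes that reached 1 CPM in at least 3 libraries. Of the 48 listed members, 44 were tested, and 0 passed a Benjamini-Hochberg adjusted p of 0.05 (limma), against 13 of all tested genes (0.119%), all 13 of them higher. That count was 3 without anti-Dll4 4, 4 without control IgG 1, 6 without anti-Dll4 1 or 2 and 20 without control IgG 3, and that of the members stayed at 0. With libraries scaled on endothelial markers, 63 genes passed, 0 of them higher, and 0 were members. The lowest adjusted p of a member was 0.289, for Ifit3b. At an unadjusted p under 0.05, 11 members were higher and 0 lower, which is 25% of those tested, beside 3.68% of all tested genes that were higher and 3.41% that were lower. Of these 11 members, 6 had passed the filter with 1 CPM in at least 3 anti-Dll4 but fewer than 3 control libraries. Of the 22 endothelial markers, 9 (40.9%) were higher and 0 lower at that p, and 1 passed the adjusted threshold (limma). The scaling on these markers left 4 members higher (Bst2, Gbp6, Ifi27 and Ifit3b). A block on the replicate numbers of the titles left 4 members higher (Ifi27, Ifitm3, Irgm1 and Parp14) and 1 lower (Gbp5). Only the numbers 3 and 4 occur in both groups, so in this fit the changes came from those libraries alone. Voom on the whole reads also called 0 members past the adjusted threshold and had 12 that were higher at an unadjusted p under 0.05.

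A change above 0 was found for 39 of the 44 tested members, beside 45.5% of all tested genes. By mean CPM, 40 of the 44 were higher in anti-Dll4 libraries, and 7 members had opposite signs on the 2 scales. The median change was 1.27 on the log2 scale, beside -0.14 for all tested genes, and with libraries scaled on the endothelial markers it was 0.36 beside -1.05, with 29 of 44 above 0. Groups did not overlap for 6 members, all higher in anti-Dll4 libraries (Ifit3b, Ifitm3, Bst2, Gbp6, Ifi27 and Ifi35), which is 13.6% of the members beside 3.84% of all tested genes; 0 members lay wholly lower, beside 3.75% of all tested genes. The filter bears on these counts, because 16 members passed it with 1 CPM in at least 3 anti-Dll4 but fewer than 3 control libraries, and all 16 had changes above 0. They include 3 of the 6 members whose groups did not overlap. Over all 48 listed members without the filter, 43 had a change above 0, beside 46.1% of all listed genes. Of the 22 endothelial markers, all of them tested, 18 had a change above 0, with a median of 1.63. Groups did not overlap for 8 of these markers (36.4%), all higher in anti-Dll4 libraries.

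**Figure D1:**
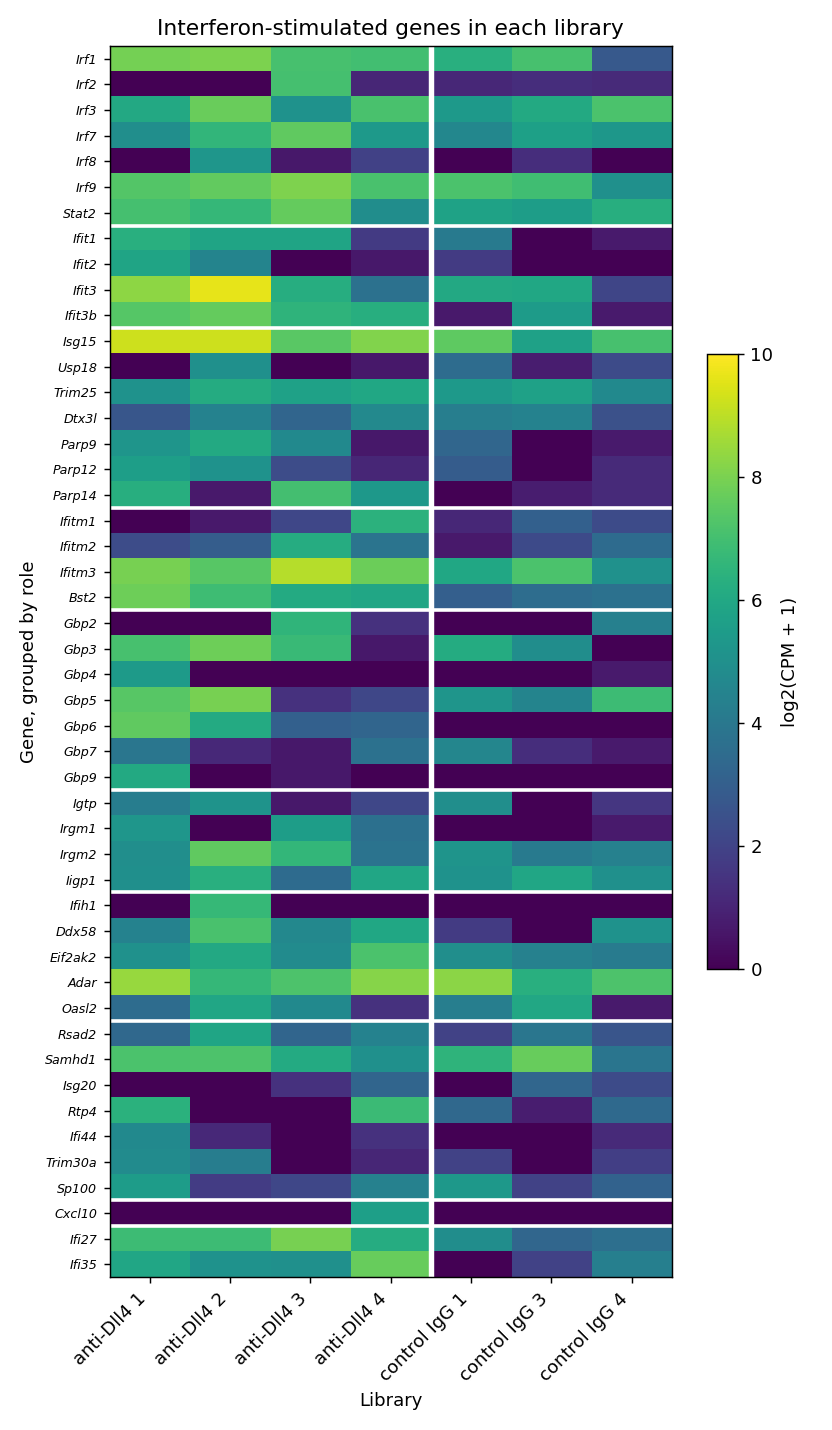
Level of each of the 48 listed interferon-stimulated genes in the 7 libraries, as log2(CPM + 1) by colour, with genes in rows grouped by role (white lines) and the 4 anti-Dll4 libraries left of the 3 control IgG libraries. The highest library was an anti-Dll4 library for 44 of the 48 genes, and several rows are bright in a single library.

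The anti-Dll4 libraries differed among themselves in which members they held. The highest library was an anti-Dll4 library for 44 of the 48 members (91.7%), beside 61.3% of all 12756 listed genes. Anti-Dll4 1 to 4, in that order, were highest for 12, 16, 10 and 6 members, and control IgG 1, 3 and 4 for 1, 3 and 0. For 9 members (18.8%, beside 12.8% of all listed genes) a single library held more than 80% of the summed CPM. These were Irf2, Irf8, Ifitm1, Gbp2, Gbp4, Gbp9, Ifih1, Ifi44 and Cxcl10. The spread was wide, with a median SD of 1.70 on the log2 scale between anti-Dll4 libraries and 1.10 between control IgG libraries over the tested members. For all tested genes it was 1.56 and 1.05.

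**Figure D2:**
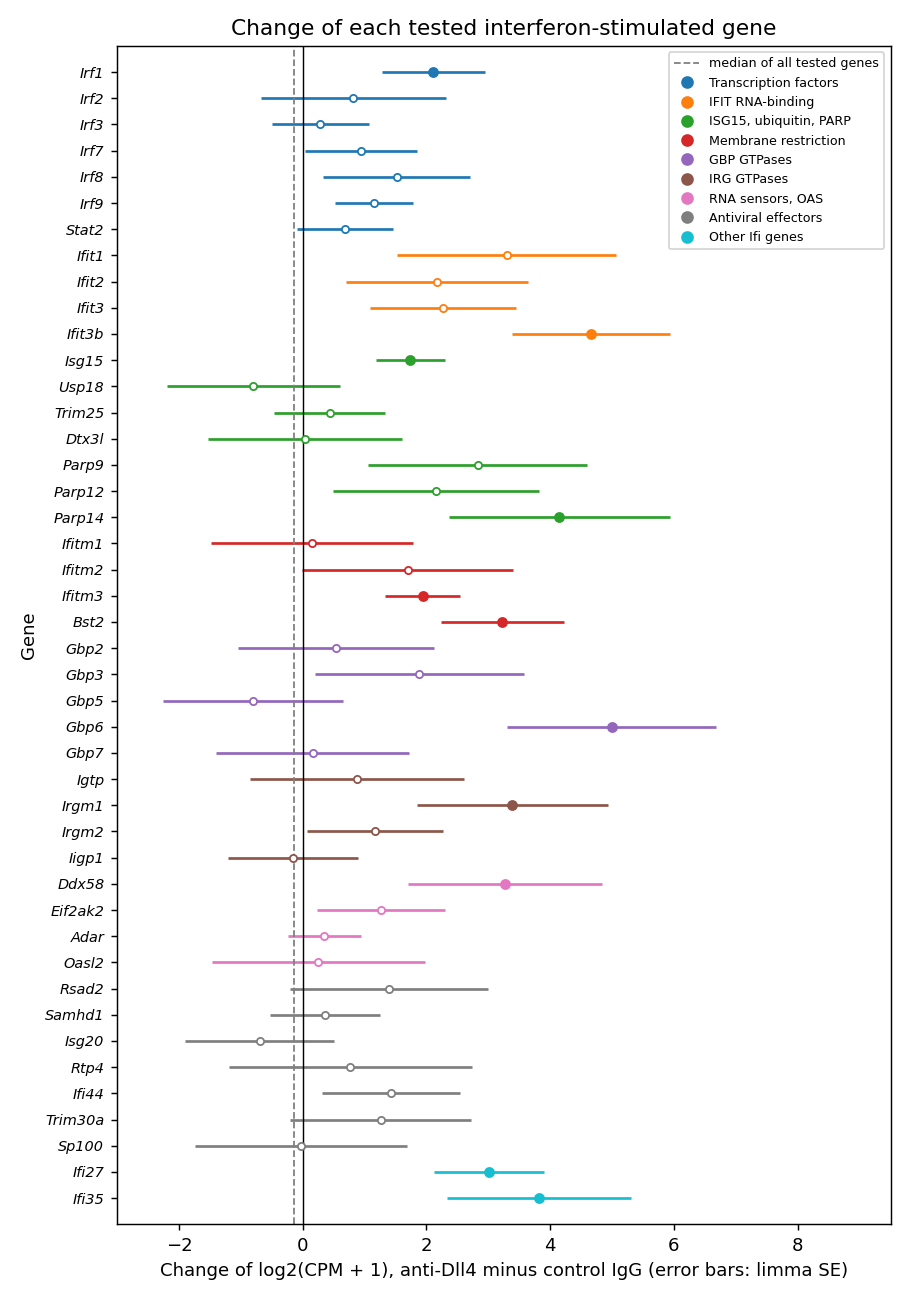
Change of log2(CPM + 1) of the 44 tested genes, anti-Dll4 minus control IgG, with limma standard errors, coloured by role. Filled points have an unadjusted p under 0.05 (11 genes, all above 0), open points do not, and 39 of the 44 points lie above 0 (29 of 44 with libraries scaled on the endothelial markers).

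Because the members are defined by their response to interferon, the promoters of some of them are shown with the elements searched for. Promoter sequences, from 250 bases before to 50 bases after the gene start, are from RefSeq (build GRCm38.p6), and 39 of the 48 listed members matched by symbol. The ISRE core was searched as GAAA, any 2 bases and GAAA, or on the other strand TTTC, any 2 bases and TTTC, and the GAS core as TTCNNNGAA, which is its own reverse complement. An ISRE core was found in a promoter of 22 of the 39 members (56.4%), beside 3.99% of the 27025 genes in the table of promoters. A GAS core was found for 15 of the 39 (38.5%), beside 9.55% of all genes. Matches are descriptions of these letters, not sites of binding. The 20 tested members with an ISRE match had a median change of 1.55, and the 17 tested members with a promoter and no match had a median of 0.44. No test was made of this difference. The tested members Gbp6, Parp14, Ifi27, Parp9, Rtp4, Iigp1 and Usp18 matched no promoter and are in neither set.

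The promoter of Isg15 (chr4:156200769-156201068, minus strand) held 3 overlapping ISRE cores that begin 78 to 66 bases before the gene start. The promoter of Bst2 (chr8:71537423-71537722, minus strand) held 2, with the first base 130 and 124 bases before the start, and a GAS core that overlaps the first of them. That of Ifit3b (chr19:34607707-34608006, plus strand) held 2 on the opposite strand, and the first of the Irf1 promoters (chr11:53769764-53770063, plus strand) held no ISRE core and a GAS core 90 bases before the start. Capitals mark the ISRE and GAS cores, and each sequence runs 5′ to 3′ on the strand of its gene.
Isg15: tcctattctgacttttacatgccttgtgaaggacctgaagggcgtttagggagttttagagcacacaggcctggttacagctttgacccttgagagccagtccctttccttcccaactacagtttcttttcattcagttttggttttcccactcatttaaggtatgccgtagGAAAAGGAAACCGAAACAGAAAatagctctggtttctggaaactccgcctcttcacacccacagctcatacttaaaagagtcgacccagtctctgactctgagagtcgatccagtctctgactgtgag
Bst2: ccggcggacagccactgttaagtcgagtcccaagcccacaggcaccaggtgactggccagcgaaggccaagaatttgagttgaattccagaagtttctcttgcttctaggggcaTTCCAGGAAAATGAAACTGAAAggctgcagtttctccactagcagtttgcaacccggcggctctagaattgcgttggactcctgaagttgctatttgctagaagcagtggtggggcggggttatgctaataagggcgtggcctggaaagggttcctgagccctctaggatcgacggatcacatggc
Ifit3b: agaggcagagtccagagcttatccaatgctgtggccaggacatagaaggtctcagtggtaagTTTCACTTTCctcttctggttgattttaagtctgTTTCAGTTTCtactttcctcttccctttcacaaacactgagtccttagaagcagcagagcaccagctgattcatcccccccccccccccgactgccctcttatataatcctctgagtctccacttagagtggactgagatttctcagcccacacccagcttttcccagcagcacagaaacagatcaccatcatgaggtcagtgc
Irf1: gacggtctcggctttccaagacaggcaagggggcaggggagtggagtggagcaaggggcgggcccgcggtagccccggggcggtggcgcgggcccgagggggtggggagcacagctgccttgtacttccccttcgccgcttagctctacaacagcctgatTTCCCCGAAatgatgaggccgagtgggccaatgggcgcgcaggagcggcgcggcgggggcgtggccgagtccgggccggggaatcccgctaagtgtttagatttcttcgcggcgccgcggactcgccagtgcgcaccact

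The promoters of Ifit3 and Ifit3b share an unbroken run of 169 bases that holds both of their ISRE cores, at 156 and 122 bases before the start in Ifit3 and at 188 and 154 in Ifit3b. Shorter windows of 30 bases around the first match show how the elements are spaced in other members. Irgm2 (chr11:58214897-58214926, plus strand) and Igtp (chr11:58199506-58199535, plus strand), neighbouring genes of the immunity-related GTPases, both carry a GAS core that begins 11 bases before an ISRE core. In Ifitm3 (chr7:141010718-141010747, minus strand), 2 ISRE cores lie just after the gene start, the second overlapping a GAS core, in Irgm1 (chr11:48871426-48871455, minus strand) 2 ISRE cores overlap before it, and in Rsad2 (chr12:26456548-26456577, minus strand) 1 core lies on the opposite strand. Capitals mark the same cores, and a core that runs past the window is shown in part.
Irgm2: gccatTTCCAGGAActGAAACTGAAAgctg
Igtp: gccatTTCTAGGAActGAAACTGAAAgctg
Ifitm3: ttcagGAAAAGGAAAcTTCTGAGAAACCGA
Irgm1: ttcaaGAAATAGAAACCGAAActgattctc
Rsad2: ccaacTTTCATTTTCagaaaacagaaactc

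The groups overlapped for each of the transcription factors of the response, and Irf2 and Irf8 were near 0 in 6 of the 7 libraries. All 7 were tested, 1 at an unadjusted p under 0.05, and their median change was 0.94. Irf1, a factor induced by interferon gamma that acts on GBP and antigen presentation genes, had 237, 259.9, 137 and 126 CPM in anti-Dll4 libraries 1 to 4, against 78.5, 134 and 5.87 CPM in control IgG libraries 1, 3 and 4. Control IgG 4 was far below the other controls, and anti-Dll4 4 lay just under control IgG 3. The log2 change was 2.11 ± 0.84 (SE; limma adjusted p = 0.655), and it was 0.81 without control IgG 4. Irf9, the DNA-binding part of ISGF3, had 159, 191, 267 and 139 CPM in anti-Dll4 libraries against 145, 120.2 and 31.3 CPM in control IgG libraries, a change of 1.15 ± 0.63 (adjusted p = 0.725). Anti-Dll4 4 alone lay within the control range, below control IgG 1. Exons of Irf9 overlap those of Rnf31 on the same strand in GENCODE M21, and exons of Irf1 overlap the opposite-strand gene Gm17334, so reads may be shared.

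Stat2, a part of ISGF3, had 131, 99.1, 198 and 28.8 CPM in anti-Dll4 libraries against 53.7, 46.5 and 76.2 CPM in control IgG libraries. Anti-Dll4 4 was the lowest of all 7 libraries and the other 3 anti-Dll4 libraries the highest. Irf7, the factor that amplifies the type I interferon response, had 30.1, 96.0, 189.8 and 41.8 CPM in anti-Dll4 libraries against 23.6, 50.9 and 37.8 CPM in control IgG libraries. Here anti-Dll4 2 and 3 lay above every control and the other 2 among them. The changes of Stat2 and Irf7 were 0.69 ± 0.78 and 0.94 ± 0.90 (adjusted p = 0.884 and 0.863), and both turned below 0 with libraries scaled on endothelial markers (-0.36 and -0.10), Irf7 also with the rod markers as a covariate (-0.08). Irf3, which responds to nucleic acid sensors, had a change of 0.29 ± 0.78. Irf2, an antagonist of Irf1, had 131 CPM in anti-Dll4 3 and at most 1.47 CPM in each of the other libraries. Irf8, a factor of microglia and other myeloid cells, had 36.7 CPM in anti-Dll4 2 and at most 2.82 CPM elsewhere.

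The IFIT proteins bind viral RNA and block its translation. All 4 IFIT genes had changes above 0, with a median of 2.79, and 1 had an unadjusted p under 0.05. Ifit3b, a close copy of Ifit3, had 163, 201, 90.6 and 76.8 CPM in anti-Dll4 libraries, against 0.590, 43.5 and 0.652 CPM in control IgG libraries. The groups did not overlap, and 2 of the 3 control libraries held a single read. Its change of 4.66 ± 1.28 (unadjusted p = 0.00149, adjusted p = 0.289) was 8.90-fold in mean CPM. Ifit3, a partner of Ifit1, had 311, 791, 74.2 and 12.4 CPM in anti-Dll4 libraries against 64.9, 61.9 and 3.26 CPM in control IgG libraries, a change of 2.27 ± 1.18 (adjusted p = 0.711). Anti-Dll4 2 stood highest, and anti-Dll4 4 lay below 2 of the controls. The change of Ifit3 was 0.96 without control IgG 4, 1.39 without anti-Dll4 2 and 3.35 without anti-Dll4 4. Ifit3 and Ifit3b are similar enough to share reads, and no source used here gives the counting rule, so the split between them is uncertain. Ifit1, which recognises the cap of foreign RNA, averaged 48.1 ± 32.5 CPM in anti-Dll4 and 5.72 ± 9.36 CPM in control IgG libraries (SD, n = 4 and 3), and Ifit2 averaged 19.5 ± 26.1 CPM in anti-Dll4 and 0.787 ± 1.36 CPM in control IgG libraries.

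**Figure D3:**
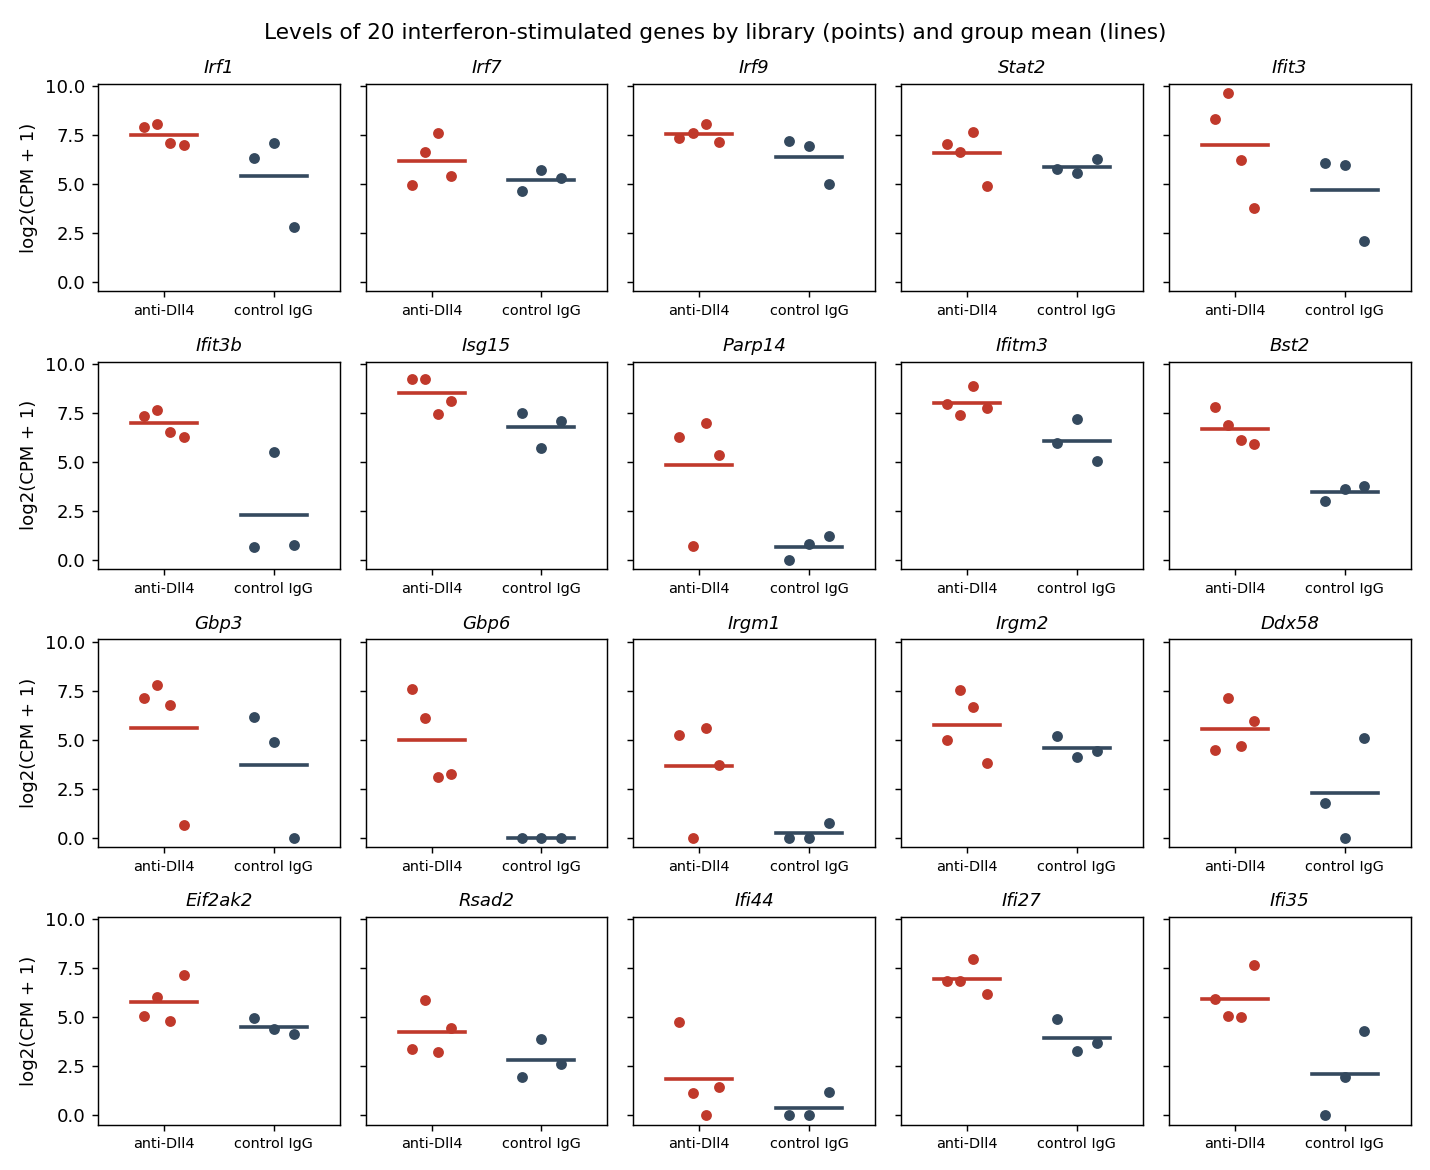
Level of 20 interferon-stimulated genes as log2(CPM + 1), with a point for each library and a line for the group mean, anti-Dll4 libraries (red, 4) left of control IgG libraries (dark blue, 3). Points of the groups do not overlap for Ifit3b, Ifitm3, Bst2, Gbp6, Ifi27 and Ifi35, and Parp14, Gbp3 and Irgm1 each have 1 anti-Dll4 library near 0.

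Isg15, a ubiquitin-like protein that is attached to other proteins during the response, had the highest levels of this group of 7 genes. Its level was 602, 596, 172 and 276 CPM in anti-Dll4 libraries and 181, 51.6 and 134 CPM in control IgG libraries. Anti-Dll4 3 lay just below control IgG 1, and the other anti-Dll4 libraries lay above all controls. The change was 1.74 ± 0.56 (unadjusted p = 0.00530, adjusted p = 0.404), or 3.37-fold in mean CPM. Usp18, the protease that removes Isg15 and restrains the receptor, had a change of -0.80 ± 1.40, although its mean CPM was 7.94 in anti-Dll4 and 5.09 in control IgG libraries, so that its direction is uncertain.

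Parp14, Parp9 and Parp12 are ADP-ribosyltransferases induced by interferon, and Dtx3l is the ubiquitin ligase that works with Parp9. Parp14 had 75.7, 0.612, 127 and 39.0 CPM in anti-Dll4 libraries against 0, 0.737 and 1.30 CPM in control IgG libraries, a change of 4.15 ± 1.79 (unadjusted p = 0.0308, adjusted p = 0.690). The control libraries held at most 2 reads each, and anti-Dll4 2 held 1. Parp9 averaged 32.2 ± 27.4 CPM in anti-Dll4 and 3.17 ± 4.93 CPM in control IgG libraries, and Parp12 averaged 21.4 ± 22.6 CPM in anti-Dll4 and 2.60 ± 3.43 CPM in control IgG libraries. Their limma unadjusted p was 0.126 for Parp9 and 0.209 for Parp12. Dtx3l, whose exons overlap those of Parp9 on the opposite strand, averaged 14.9 ± 9.41 CPM in anti-Dll4 and 14.5 ± 8.69 CPM in control IgG libraries, a change of 0.04 ± 1.57. Trim25, the ligase that activates the RNA sensor Ddx58, averaged 53.9 ± 15.5 CPM in anti-Dll4 and 39.7 ± 12.9 CPM in control IgG libraries.

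The membrane proteins that restrict virus entry and release had a median change of 1.82, with 2 of 4 at an unadjusted p under 0.05 and both of these without overlap. Bst2, or tetherin, which holds budding virus at the cell surface, had 222, 117, 68.0 and 59.9 CPM in anti-Dll4 libraries, against 7.08, 11.1 and 12.4 CPM in control IgG libraries. The lowest anti-Dll4 library was several times above the highest control. The change was 3.23 ± 1.00 (unadjusted p = 0.00388, adjusted p = 0.383), 11.5-fold in mean CPM. Ifitm3, which blocks fusion of virus in endosomes, had 248, 168, 470.2 and 216 CPM in anti-Dll4 libraries, against 62.0, 143 and 31.9 CPM in control IgG libraries. The gap between the groups was narrow, anti-Dll4 2 being just above control IgG 3. The change was 1.94 ± 0.61 (unadjusted p = 0.00453, adjusted p = 0.393), 3.49-fold in mean CPM. Ifitm1 and Ifitm2 had changes of 0.15 ± 1.63 and 1.70 ± 1.70. They are similar in sequence to Ifitm3 and lie beside it, so shared reads leave their values uncertain.

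The guanylate-binding proteins (GBP) and the immunity-related GTPases (IRG) are GTPases, induced above all by interferon gamma, that attack the vacuoles of intracellular pathogens. Gbp6 had 189, 67.9, 7.36 and 8.47 CPM in anti-Dll4 libraries and 0 reads in each of the 3 control IgG libraries. Against a floor of 3 reads in each control library (1.98 CPM on average), its mean was at least 34.4-fold higher (limma unadjusted p = 0.00748, adjusted p = 0.479). Anti-Dll4 1 held most of this signal, and without it the mean was at least 14.1-fold higher. Gbp3 had 136, 220.2, 108 and 0.565 CPM in anti-Dll4 libraries against 70.8, 28.8 and 0 CPM in control IgG libraries, a change of 1.89 ± 1.68 (adjusted p = 0.849). Anti-Dll4 4 and control IgG 4 held at most 1 read, while the other anti-Dll4 libraries lay above the other controls. The change of Gbp3 was 0.04 without control IgG 4 and 3.53 without anti-Dll4 4 (unadjusted p = 0.0153 by limma). Gbp5, which also promotes inflammasome assembly, was high in anti-Dll4 1 and 2 (168 and 249 CPM) and low in anti-Dll4 3 and 4 (1.70 and 3.39 CPM), with 36.0, 22.1 and 116 CPM in control IgG libraries, and its change was -0.80 ± 1.46.

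Of the other GBP genes, Gbp2 and Gbp7 had changes of 0.54 ± 1.59 and 0.16 ± 1.56, and Gbp4 and Gbp9 were below the filter. Gbp4 and Gbp9, whose exons overlap in the annotation, had 42.9 and 67.0 CPM in anti-Dll4 1 and at most 1 read in every other library. The GBP genes are a family of similar copies, so their separate values are uncertain. Anti-Dll4 1 was the library with the highest Gbp4, Gbp6 and Gbp9, and anti-Dll4 2 that with the highest Gbp3 and Gbp5.

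Among the IRG genes, Irgm1, a regulator of the family, had 36.8, 0, 47.0 and 11.9 CPM in anti-Dll4 libraries against 0, 0 and 0.652 CPM in control IgG libraries. A single read was found over the 3 control libraries, and anti-Dll4 2 held none. Its change was 3.39 ± 1.54 (unadjusted p = 0.0393, adjusted p = 0.695). Irgm2 had 30.1, 185, 98.6 and 13.0 CPM in anti-Dll4 libraries against 35.4, 16.2 and 20.2 CPM in control IgG libraries, a change of 1.17 ± 1.10 (adjusted p = 0.862). Anti-Dll4 2 and 3 were above the controls and anti-Dll4 4 below them. Igtp, whose exons overlap those of Irgm2 in the annotation, had a change of 0.88 ± 1.73. Iigp1, an effector GTPase, averaged 44.6 ± 30.1 CPM in anti-Dll4 and 41.1 ± 15.5 CPM in control IgG libraries.

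The sensors of viral RNA had a median change of 0.81 over the 4 tested genes, beside -0.14 for all tested genes. With libraries scaled on endothelial markers the median was -0.18 for the sensors and -1.05 for all tested genes. Ddx58, or RIG-I, which detects RNA with a triphosphate end, had 20.8, 139, 24.4 and 61.0 CPM in anti-Dll4 libraries against 2.36, 0 and 33.2 CPM in control IgG libraries. Control IgG 4 lay above 2 of the anti-Dll4 libraries, and the change was 3.27 ± 1.56 (unadjusted p = 0.0490, adjusted p = 0.697). Eif2ak2, or PKR, which halts translation on double-stranded RNA, had 32.1, 65.4, 27.2 and 144 CPM in anti-Dll4 libraries against 30.1, 19.9 and 16.9 CPM in control IgG libraries, a change of 1.27 ± 1.04 (adjusted p = 0.825). Anti-Dll4 3 alone lay within the control range. Adar, which edits double-stranded RNA and is expressed without interferon too, averaged 219.6 ± 116 CPM in anti-Dll4 and 178 ± 118 CPM in control IgG libraries, a change of 0.35 ± 0.59. Oasl2, an oligoadenylate synthetase-like protein, had a change of 0.25 ± 1.72. Ifih1, or MDA5, a sensor of long double-stranded RNA, had 102 CPM in anti-Dll4 2 and 0 reads in the other 6 libraries.

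The 7 listed antiviral effectors had a median change of 0.77, with 0 at an unadjusted p under 0.05. Rsad2, or viperin, which makes a chain-terminating nucleotide, had 9.37, 58.1, 8.50 and 20.9 CPM in anti-Dll4 libraries against 2.95, 14.0 and 5.21 CPM in control IgG libraries, a change of 1.40 ± 1.60 (adjusted p = 0.885). Ifi44 had 26.1, 1.22, 0 and 1.69 CPM in anti-Dll4 libraries against 0, 0 and 1.30 CPM in control IgG libraries, a change of 1.43 ± 1.12 (adjusted p = 0.818). The highest library was anti-Dll4 2 for Rsad2 and anti-Dll4 1 for Ifi44, and the other libraries overlapped between groups. Samhd1, which depletes the nucleotides needed for reverse transcription, averaged 96.9 ± 56.6 CPM in anti-Dll4 and 102 ± 94.8 CPM in control IgG libraries. Isg20, an exonuclease, averaged 2.54 ± 4.03 CPM in anti-Dll4 and 4.25 ± 4.43 CPM in control IgG libraries. Rtp4 had 83.0 and 113 CPM in anti-Dll4 1 and 4 and 0 reads in anti-Dll4 2 and 3, against 0.737 to 9.78 CPM in control IgG libraries. The changes of Trim30a and Sp100, a component of nuclear bodies, were 1.26 ± 1.47 and -0.03 ± 1.71.

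Ifi27, a small mitochondrial and nuclear membrane protein that type I interferon induces, had 115, 114, 249 and 72.8 CPM in anti-Dll4 libraries, against 28.9, 8.85 and 11.7 CPM in control IgG libraries. Every anti-Dll4 library was well above every control, and the change was 3.01 ± 0.89 (unadjusted p = 0.00279, adjusted p = 0.358), 8.33-fold in mean CPM. Ifi35, a partner of the interferon-induced protein Nmi, had 59.6, 33.0, 31.2 and 202 CPM in anti-Dll4 libraries against 0, 2.95 and 18.9 CPM in control IgG libraries. The groups did not overlap, anti-Dll4 4 was the highest, and the change was 3.82 ± 1.48 (unadjusted p = 0.0174, adjusted p = 0.635). Exons of Ifi35 overlap the opposite-strand gene Gm11626. Cxcl10, a chemokine that draws T cells and a common marker of interferon gamma, had 49.7 CPM in anti-Dll4 4 and 0 reads in the other 6 libraries.

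The members differed in how much they rested on single libraries. When each of the 7 libraries was left out in turn, Ifit3b, Isg15, Ifitm3, Bst2, Gbp6 and Ifi27 kept an unadjusted p under 0.05 in 7 of 7 fits. Ifi35 did so in 5, Irf1 in 4, Ddx58 in 3, and Parp14 and Irgm1 in 1. Of the first 6, Isg15 and Ifitm3 did not keep it with libraries scaled on endothelial markers, where their changes were 0.68 for Isg15 and 0.89 for Ifitm3 (limma adjusted p = 0.598 and 0.444). With the replicate block, which compares only libraries 3 and 4 of each group, Ifit3b, Isg15, Bst2 and Gbp6 did not keep it. Their changes there were 3.30, 1.38, 2.35 and 3.15 (limma adjusted p = 0.657 to 0.721). Isg15 also lost it without the mean-variance trend, and Ifitm3 with the rod marker covariate (limma unadjusted p = 0.0620 and 0.0893). Of the first 6, only Ifi27 kept it under every alternative, at 0.0498 with the rod marker covariate (limma unadjusted p). Leaving out 1 library moved the log2 change by more than 1.5 times for 11 of the 20 members given by library (Irf1, Irf7, Irf9, Stat2, Ifit3, Gbp3, Irgm2, Ddx58, Eif2ak2, Rsad2 and Ifi44). For 7 tested members the log2 change and the difference of mean CPM had opposite signs (Usp18, Gbp5, Iigp1, Sp100, Gbp7, Oasl2 and Samhd1), so their direction is uncertain. Of the 37 other tested members, 36 were higher and 1 (Isg20) lower on both scales.

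Genes upstream of the response had changes in both directions. Of the receptor and kinase genes, 10 were tested, 6 with a change above 0 and 4 below, with a median of 0.06 and 0 past the adjusted threshold (limma; 1 higher and 1 lower at an unadjusted p under 0.05). Stat3, which relays signals of interleukin 6 and other cytokines, had 81.0, 108, 249.8 and 131 CPM in anti-Dll4 libraries against 52.5, 14.7 and 31.9 CPM in control IgG libraries, a change of 2.11 ± 0.78 (adjusted p = 0.593). Ifnar1, a chain of the type I interferon receptor, had 0, 0.612, 0.566 and 0 CPM in anti-Dll4 libraries against 11.8, 1.47 and 12.4 CPM in control IgG libraries, a change of -2.58 ± 1.08 (adjusted p = 0.688). The groups did not overlap for either gene, Stat3 being higher and Ifnar1 lower in all 4 anti-Dll4 libraries. For Ifnar1 the gap was at the floor, with 2 reads in all over the anti-Dll4 libraries and 41 over the control libraries. Its 1.47 CPM in control IgG 3 lay below the floor of 3 reads (2.21 CPM) in that library. Of the 9 interferon genes on the list of ligands, 0 were analysed here.

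Feedback inhibitors (6 tested) had a median change of -0.23, with 0 at an unadjusted p under 0.05. Those with the smallest p were Socs3, a suppressor of Jak kinases (1.35 ± 1.58, adjusted p = 0.887), and Pias1, an inhibitor of cytokine signalling (-1.09 ± 1.79, adjusted p = 0.922). Genes of nucleic acid sensing (12 tested) had 6 changes above 0 and 6 below, with a median of -0.01. Myd88, the adaptor of most toll-like receptors, had 42.2, 51.4, 149 and 98.8 CPM in anti-Dll4 libraries against 18.9, 2.95 and 2.61 CPM in control IgG libraries, a change of 3.54 ± 1.24 (adjusted p = 0.526) with groups that did not overlap. Rnaseh2a, a subunit of the RNase that clears RNA-DNA hybrids, had a change of -3.73 ± 1.68 (adjusted p = 0.695).

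A further list of 51 interferon-induced genes, which includes antigen presentation genes, had 33 tested. Of these, 24 (72.7%) had a change above 0, beside 45.5% of all tested genes. At an unadjusted p under 0.05 (limma), 6 (18.2%) were higher and 0 lower, beside 3.68% and 3.41% of all tested genes. Groups did not overlap for 5 (15.2%), all higher, beside 3.84% of all tested genes. The median change was 0.97, and 0 passed the adjusted threshold (limma). B2m, the light chain of class I histocompatibility molecules, had 517, 923, 419 and 357 CPM in anti-Dll4 libraries against 119, 202 and 69.7 CPM in control IgG libraries, a change of 2.11 ± 0.47 (adjusted p = 0.0965). Ly6e, an interferon-induced surface protein, had 287, 97.9, 179 and 189 CPM in anti-Dll4 libraries against 27.1, 45.7 and 39.8 CPM in control IgG libraries, a change of 2.23 ± 0.67 (adjusted p = 0.358). For both genes every anti-Dll4 library was above every control.

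The summed CPM of the 48 members and that of the endothelial markers were both higher in anti-Dll4 libraries. The sum was 4156, 4747, 3129.8 and 2474 CPM in anti-Dll4 libraries 1 to 4, against 1524, 1344 and 996 CPM in control IgG libraries 1, 3 and 4, or 2.82-fold between the group means. The summed endothelial markers were 7477, 6979.6, 9829 and 7700.4 CPM in anti-Dll4 libraries and 3076, 5025 and 3535 CPM in control IgG libraries, or 2.06-fold. For both sums the groups did not overlap. The 40 listed genes of the further interferon-induced list summed to 1972 to 3514 CPM in anti-Dll4 and 1178 to 2005 CPM in control IgG libraries. That was 1.58-fold between the group means, and there the groups overlapped. Per CPM of endothelial markers, the members stood at 0.556, 0.680, 0.318 and 0.321 in anti-Dll4 libraries and at 0.495, 0.267 and 0.282 in control IgG libraries, so the groups overlapped, with control IgG 1 above anti-Dll4 3 and 4. The order of the anti-Dll4 libraries also differed, since anti-Dll4 3 had the most endothelial marker CPM and anti-Dll4 2 the most from interferon-stimulated genes. The part of the endothelial share in the levels of the members was not tested.

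**Figure D4:**
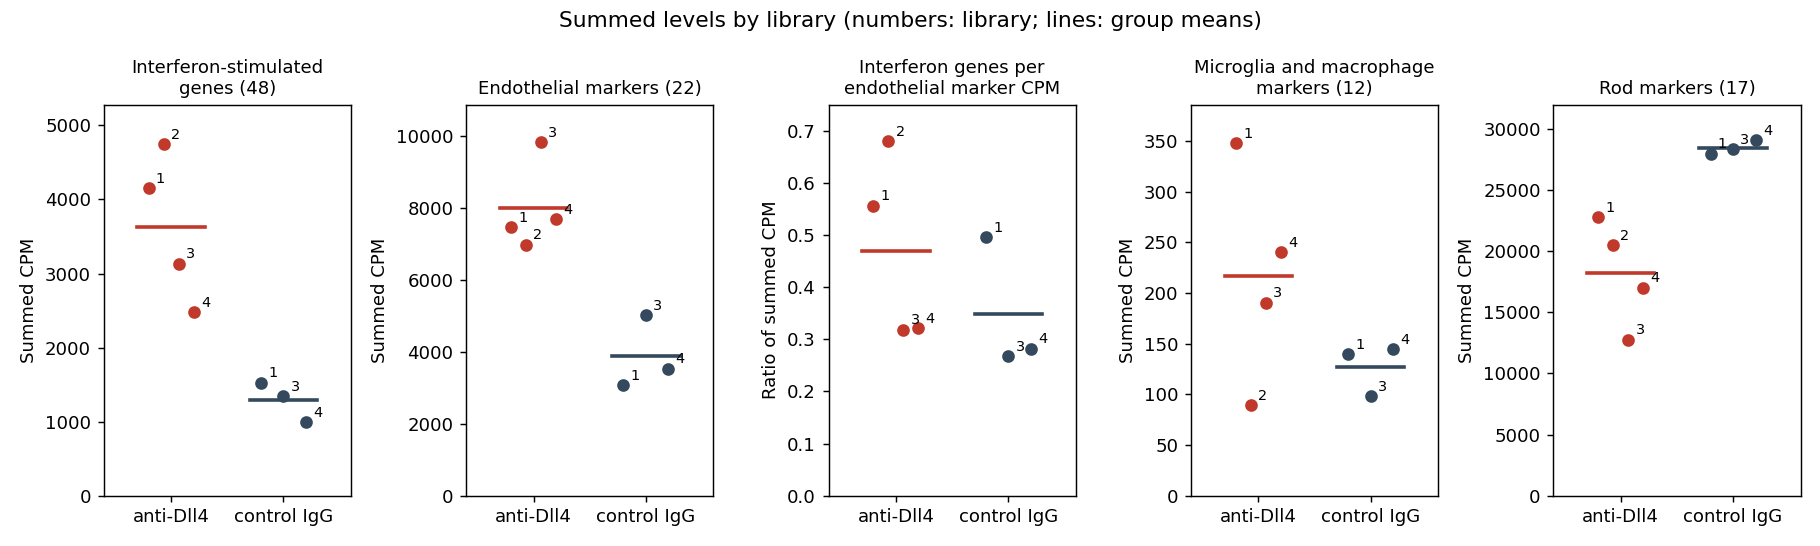
Summed CPM per library of the 48 interferon-stimulated genes, of 22 endothelial, 12 microglia and macrophage and 17 rod markers, and the ratio of the first 2 sums, with a numbered point for each library and a line for each group mean, anti-Dll4 left of control IgG. The sums of interferon-stimulated genes and of endothelial markers are higher in all 4 anti-Dll4 libraries, the rod sum is lower, and the ratio and the microglia sum overlap between groups.

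Microglia and leukocytes also express interferon-stimulated genes, and markers of both were found in the libraries. Of 20 markers of microglia and macrophages, 12 were listed, and their sum was 348, 89.3, 190.3 and 239.97 CPM in anti-Dll4 libraries against 139, 98.1 and 145 CPM in control IgG libraries (exact permutation p = 0.286, two-sided). The groups overlapped, with anti-Dll4 2, the library with the highest sum of members, at the lowest microglia sum of all 7. Of the 12 tested markers, 6 had a change above 0 and 6 below, and the median was 0.18. The defining microglial gene C1qa had 38.8, 2.45, 2.27 and 8.47 CPM in anti-Dll4 libraries against 0, 0.737 and 0 CPM in control IgG libraries, and the pan-leukocyte gene Ptprc had 57.6, 3.67, 43.6 and 13.0 CPM in anti-Dll4 libraries against 1.77, 5.16 and 7.17 CPM in control IgG libraries. Both were highest in anti-Dll4 1, which was the highest library for 12 of the 48 members, beside 16 for anti-Dll4 2. The 7 listed markers of lymphocytes and granulocytes summed to 67.0 to 1820.4 CPM in anti-Dll4 and 214 to 2467 CPM in control IgG libraries (exact permutation p = 0.400), nearly all from the neutrophil genes S100a8 and S100a9. The part of these cells in the levels of the members was not tested.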

How the data were processed

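Per the labels' protocols, anti-HA beads recovered tagged ribosomes from retinas, and their RNA was sequenced with QuantSeq, a method that reads 3′ ends. Per the submitters' processing notes, cutadapt, TopHat2 and bedtools were used, with no versions, and the build named is hg19, a human build, although the symbols are mouse symbols. No source used here gives the counting rule or annotation. The authors deposited log10 values of CPM plus 1 for 12756 genes. Converted back to CPM, 100% of values equalled a whole number of reads (tolerance 1e-06). The library totals are 6.78% to 8.86% of 20000000 reads, the median stated in the labels. Reads are not independent molecules, so read counts cover counting error only.

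Values were converted to log2(CPM + 1) and fitted with limma 3.58.1 in R 4.3.3 (mean-variance trend, two-sided, Benjamini-Hochberg over the 10899 genes reaching 1 CPM in 3 or more libraries). The added 1 shrinks changes of low genes. The fit was also run on simulated data with a normal spread around each gene's mean, and the outcome is not used here. Sums and exact permutation tests used Python 3.11.15 and scipy 1.17.1. Members and lists were chosen with earlier results of these data known. Values in each library are given for members with an unadjusted p under 0.05, for Irf7, Irf9, Stat2 and Isg15, and for the 2 tested members of each role with the smallest p, 20 in all. Of the other interferon lists, the 2 genes with the smallest p are named; other genes were named after their values were seen. Alternatives were other pseudocounts, filters, scalings, no trend, voom, a rod covariate, a replicate block and each library left out.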

Additional observations from a re-analysis of the deposited data

Results flagged for a closer look

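Gbp3 in anti-Dll4 4 stood apart from the other libraries of its group, at 0.565 CPM, or a single read, against 108 to 220.2 CPM in anti-Dll4 1 to 3. On the log2(CPM + 1) scale its gap to the next library was 0.856 of the range of the group, above Dixon's 95% critical value for 4 samples. Such a gap is found by chance in about 1 in 20 groups, and 20 genes were looked at. Control IgG 4 held 0 reads of Gbp3.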

How the results depend on the processing

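Of 10899 genes, 13 passed the adjusted threshold, and 0 members did under every alternative run. The count of 13 was 0 without the mean-variance trend, 1 with the rod marker covariate, 38 with voom on whole reads and 3 with a replicate block. With libraries scaled on endothelial markers it was 63, all lower, where CPM gave 13 higher, and 4 members were higher at an unadjusted p under 0.05, with a member median of 0.36. There Irf7 (-0.10) and Stat2 (-0.36) turned below 0, and with the rod covariate the log2 change of Irf7 was -0.0796. This scaling moves every gene of a library alike, and the median of all tested genes went with it to -1.05. For the other reversals and counts the cause was not tested. The member median was 1.06 to 1.93 under the remaining alternatives with no library left out. Among these, the replicate block took its changes from libraries 3 and 4 of each group alone.

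The numbers 3 and 4 occur in titles of both groups, but nothing says that they pair libraries, and the deviations of same-numbered libraries correlated at 0.05 and 0.07. With the replicate block, 4 members were higher and 1, Gbp5, lower at an unadjusted p under 0.05, against 11 higher and 0 lower without it. The other libraries have no partner in the block, so its changes came from libraries 3 and 4 of each group alone. With a library left out, the count of all genes ran from 3 (without anti-Dll4 4) to 20 (without control IgG 3), with 4 without control IgG 1 and 6 without anti-Dll4 1 or 2. Members higher at an unadjusted p under 0.05 ran from 8 to 11, members above 0 from 35 to 39, and their median from 1.10 to 1.62. Of the 48 listed members, 3 to 15 had 0 reads in a given library, so at this depth their absence could not be told from sampling.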
